A study of Mus musculus with 2 samples.

Results

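The hairpins embedded in the Hox gene clusters were examined in microRNA sequencing of mouse adrenal gland, the organ that pairs a steroid-producing cortex with a catecholamine-producing medulla. The members are Mir10a, Mir10b, Mir196a-1, Mir196a-2, Mir196b and Mir615, taken by name and matched through their Ensembl identifiers to GENCODE M21, and they are 6 of the 2202 annotated microRNA genes counted. Both libraries came from 1 group, adrenal tissue of male B6CASTF1/J mice aged 25 days, an F1 cross between the strains C57BL/6J and CAST/EiJ. The labels give no treatment, and there was no second group. The animals are numbered separately in the labels but share a donor entry, so spreads measure only these 2 libraries and may be technical.

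Hox genes encode transcription factors that specify position along the body axis, and their order in each cluster follows the order of the body regions in which they act. MicroRNA genes lie between them and can be transcribed together with their Hox neighbours. A microRNA is cut from a hairpin, and 1 arm of it guides the silencing complex to messenger RNAs that pair with its seed, bases 2 to 8. In mouse embryos miR-196 is known to direct cleavage of the Hoxb8 messenger RNA.

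The guide strands show why the hairpins fall into 3 families, and which of them reads can tell apart. They are given 5′ to 3′ as RNA with the seed in capitals, from RefSeq on GRCm38.p6.
miR-10a-5p (chr11:96317186-96317208, + strand): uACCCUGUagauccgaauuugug
miR-10b-5p (chr2:74726074-74726096, + strand): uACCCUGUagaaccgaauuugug
miR-196a-5p (chr11:96265187-96265208 and chr15:102973365-102973386, + strand): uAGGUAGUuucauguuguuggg
miR-196b-5p (chr6:52230129-52230150, − strand): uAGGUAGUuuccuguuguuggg
miR-615-3p (chr15:103014969-103014990, + strand): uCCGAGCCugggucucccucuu
miR-10a-5p and miR-10b-5p share a seed and differ at a single base, U12A, counted from the 5′ end with the miR-10a base first. miR-196a-5p and miR-196b-5p likewise differ only by A12C, with the miR-196a base first. In the RefSeq table of 1738 mature entries the seed of the miR-10 strands was held by 2 hairpins, that of miR-196 by 3 and that of miR-615-3p by 1, all of them members.

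Mir196a-1 and Mir196a-2 make the same guide strand, and reads that map to several places were not counted for any gene. Their hairpins are printed with the longest run they share, 22 bases, in capitals.
Mir196a-1 (chr11:96265164-96265265, + strand, GRCm38.p6): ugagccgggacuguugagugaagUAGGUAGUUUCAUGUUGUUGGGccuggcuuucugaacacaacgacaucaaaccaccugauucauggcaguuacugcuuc
Mir196a-2 (chr15:102973350-102973434, + strand, GRCm38.p6): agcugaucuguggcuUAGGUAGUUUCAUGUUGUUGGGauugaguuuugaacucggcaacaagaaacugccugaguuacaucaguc
The shared run is exactly the guide strand, so a read of miR-196a-5p alone fits both genes. Their opposite arms have no run of more than 5 bases in common. The unique counts of these hairpins therefore understate miR-196a and may rest on other reads of the hairpin. The other 4 members share no 20 bases with any annotated hairpin, and the longest run between Mir10a and Mir10b was 15 bases. Among the 352 hairpins with at least 10 counts in both libraries, called detected here, 89 (25.3%) share 20 bases with another.

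The miR-10 hairpins lie at matching places in 2 clusters and the miR-196 hairpins in 3, while Mir615 has no counterpart among the members. Mir10a (ENSMUSG00000065519.1, mm10 chromosome 11, 96317165 to 96317274) lies outside any same-strand gene, 992 bases before Hoxb4 and 11043 bases after Hoxb5. Mir10b (ENSMUSG00000065500.3, chromosome 2, 74726070 to 74726137) lies in introns of Hoxd3 and Hoxd4 transcripts. Mir196a-1 (ENSMUSG00000065546.1, chromosome 11, 96265164 to 96265265) lies between Hoxb13 and Hoxb9, 6191 bases before Hoxb9. Mir196a-2 (ENSMUSG00000065488.2, chromosome 15, 102973350 to 102973434) stands between Hoxc10 and Hoxc9, inside an intron of a noncoding Hoxc5 transcript. Mir196b (ENSMUSG00000065443.1, chromosome 6, 52230081 to 52230165, minus strand) is 1031 bases from Hoxa10 and overlaps exons of noncoding Hoxa9 transcripts. Mir615 (ENSMUSG00000076010.1, chromosome 15, 103014910 to 103015001) is in an intron of Hoxc5. The 4 clusters hold 39 Hox genes and 1 more annotated hairpin, Gm44463 of the HoxD cluster, which had 0 counts in both libraries.

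**Figure D1:**
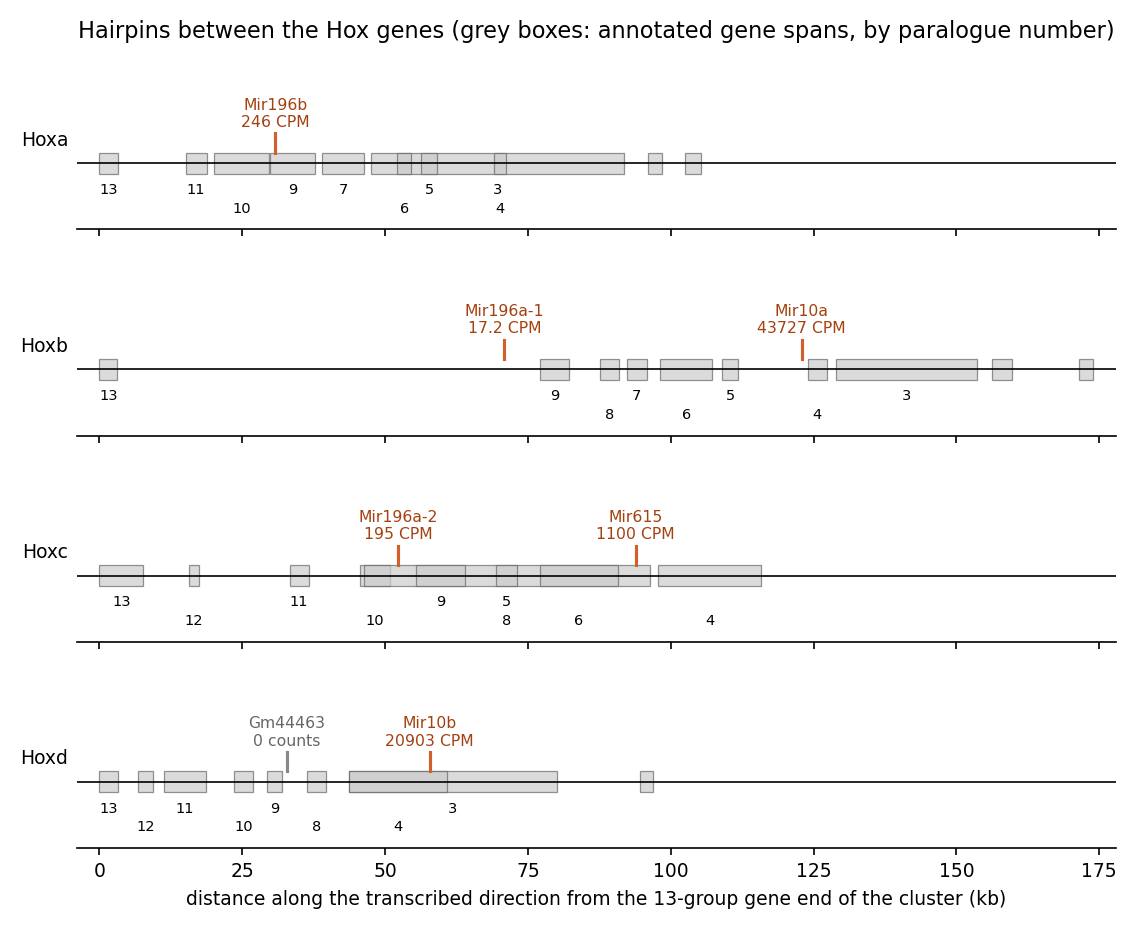
The 4 Hox clusters drawn to scale, with distance in kb from the end of the cluster that holds the paralogue 13 gene on the horizontal axis. Grey boxes are annotated gene spans, with paralogue numbers from 3 upwards, and coloured marks are hairpins with their mean CPM over 2 replicates. The highest hairpins, Mir10a and Mir10b, sit beside the paralogue 4 genes, and the miR-196 hairpins near the paralogue 9 genes.

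Replicate 1 held 3588361 sense counts on microRNA genes out of 8666085 input reads, and replicate 2 held 4541373 out of 10284575. Reads mapped to several places made up 31.6% and 27.0% of input. Levels are counts per 1000000 sense counts of the library (CPM), and a count of 0 would allow up to 0.836 CPM in replicate 1 and 0.661 CPM in replicate 2. Intervals are exact at 95% and cover counting error only. Reads were assumed to come mostly from whole mature strands, so levels were not divided by hairpin length. Dividing them left the order of the members as it was, and ligation efficiency, which differs between sequences, was not measured. Replicate 2 differs from replicate 1 in Mir122, the hepatocyte microRNA, at 892 CPM in replicate 1 against 197553 CPM in replicate 2, which lowers the CPM of every other gene in replicate 2.

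All 6 members were detected, and they held 8.83% of the sense counts in replicate 1 (8.80 to 8.86) and 4.41% in replicate 2 (4.39 to 4.42), or 6.62% ± 3.13 (SD, n = 2). Nearly all of this was miR-10. Mir10a and Mir10b together held 6.46% ± 3.17 of the counts, and the other 4 members 0.156% ± 0.0360. Counted levels of the members spanned more than 3 orders of magnitude, from Mir10a to Mir196a-1. The counts of Mir196a-1 and Mir196a-2 leave out reads of the guide strand alone.

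Mir10a had 200062 counts in replicate 1 and 143963 in replicate 2, which is 55753 and 31700.3 CPM, with a mean of 43727 ± 17008 CPM (SD, n = 2). It ranked 5 in replicate 1 and 7 in replicate 2 among all 2202 genes. Mir10b had 112181 counts in replicate 1 and 47886 in replicate 2, which is 31262 and 10544 CPM, with a mean of 20903 ± 14649.9 CPM. It ranked 12 in replicate 1 and 20 in replicate 2. Both were high in both libraries, and both were higher in replicate 1. The Mir10b level in replicate 1 came close to the Mir10a level in replicate 2, but within each library Mir10a was the higher.

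Mir615 was the member next in counted level. Its 2671 counts in replicate 1 and 6609 in replicate 2 correspond to 744 and 1455 CPM, with a mean of 1099.8 ± 503 CPM (SD, n = 2). It was the only member with the higher level in replicate 2, and its rank was 86 in replicate 1 and 56 in replicate 2.

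The miR-196 hairpins had low unique counts. For Mir196a-1 and Mir196a-2 these leave out reads of the guide strand alone, so their levels and places in the order may be too low. Mir196b had 1063 counts in replicate 1 and 888 in replicate 2, which is 296 and 196 CPM, and a mean of 246 ± 71.2 CPM (SD, n = 2). Mir196a-2 had 872 and 672 counts in the same order, or 243 and 148 CPM, and a mean of 195 ± 67.2 CPM. The ranges of these hairpins over the libraries overlap, but within a library Mir196b had 1.22 times the counts of Mir196a-2 in replicate 1 (1.11 to 1.33) and 1.32 times in replicate 2 (1.19 to 1.46). No other neighbours in the order overlap in range. Mir196a-1 had 72 counts in replicate 1 and 65 in replicate 2, which is 20.1 and 14.3 CPM, and a mean of 17.2 ± 4.07 CPM. Its counts were above the floor in both libraries and well below those of Mir196a-2, and both rest on reads outside the shared run or longer than it.

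**Figure D2:**
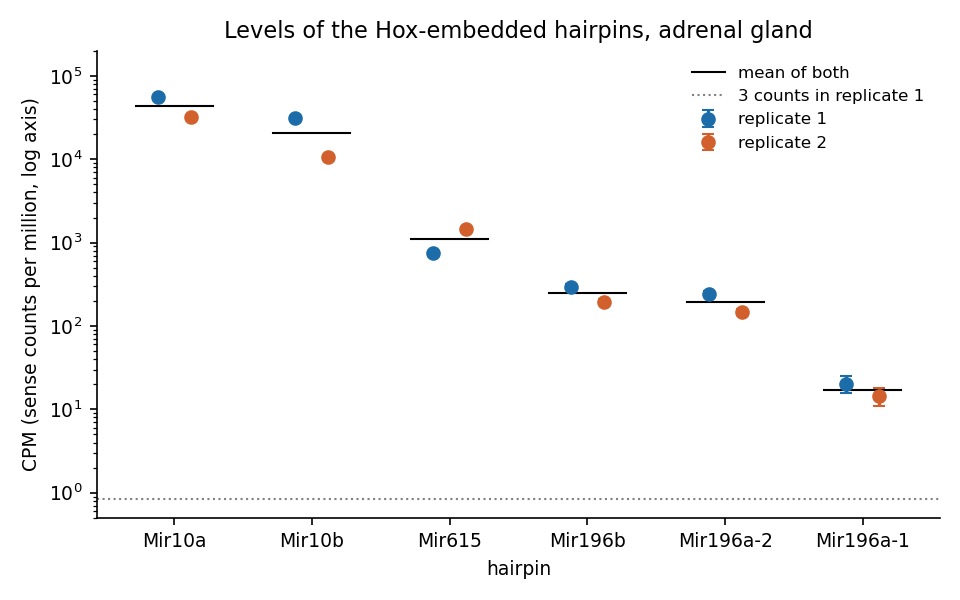
CPM of each member on a log axis, with replicate 1 and replicate 2 as separate points, exact 95% intervals of the counts as bars and the mean as a line. The order is Mir10a, Mir10b, Mir615, Mir196b, Mir196a-2 and Mir196a-1 in both replicates, and Mir615 alone has the higher point in replicate 2. Bars smaller than the points are hidden, and the counts of Mir196a-1 and Mir196a-2 leave out reads of the guide strand alone.

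Between the libraries, 5 of 6 members had the higher level in replicate 1, as did 191 of the 352 detected genes (54.3%). The difference was tested per gene with an exact two-sided binomial test of the reads given the totals of the libraries, adjusted by Benjamini-Hochberg over all detected genes, at a threshold of 0.05. This compares 2 libraries and not conditions, and with 1 library on each side it does not weigh the spread between animals. Members called higher in replicate 1 were 4 of 6, where 36.6% of detected genes were so called. Members called higher in replicate 2 were 1 of 6, against 30.4% of detected genes. Calls in either direction were made for 5 of 6 members and 67% of detected genes, so a call is common at this depth and the sizes say more. In bulk tissue, fewer cells of a type and less RNA per cell cannot be told apart.

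Mir10b differed most, with a ratio of replicate 1 to replicate 2 of 2.96 (2.93 to 3.00). That was the 13th highest of the 352 detected genes. Among the 22 genes that averaged 10000 CPM or more it was the highest, followed by Mir21a at 2.35, and Mir10a was the 4th at 1.76. The ratio of Mir10a had an interval of 1.75 to 1.77, and its p, like that of Mir10b, was too small to be written as other than 0. Mir196a-2 had a ratio of 1.64 (1.48 to 1.82, adjusted p = 9.20e-22 by the exact binomial test). Mir196b had one of 1.51 (1.38 to 1.66, adjusted p = 1.80e-19 by the same exact test). Mir196a-1, at 1.40 (0.988 to 1.99), missed the threshold with an adjusted p of 0.0702 in the exact binomial test. Mir615 had a ratio of 0.511 (0.489 to 0.535), with an adjusted p of 1.92e-202 in that exact test.

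The median ratio was 1.58 for the members and 1.03 for all detected genes. The median log2 ratio of all detected genes was 0.04, and -0.28 when totals were taken without Mir122. Genes called higher in replicate 1 numbered 129, and 107 were called higher in replicate 2, while totals without Mir122 gave 75 and 176. Ratios relative to the median gene do not depend on the total. They were 2.89 for Mir10b, 1.71 for Mir10a, 1.60 for Mir196a-2, 1.47 for Mir196b, 1.36 for Mir196a-1 and 0.498 for Mir615. With those totals, Mir10b had a ratio of 2.38 and Mir10a one of 1.41, and the same 4 and 1 members were called.

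**Figure D3:**
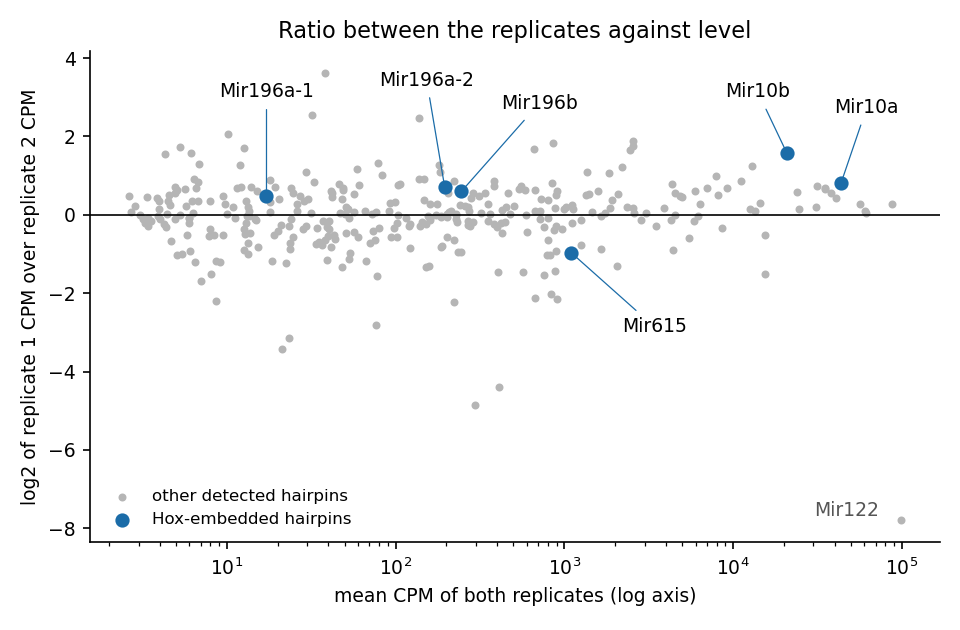
Log2 of the replicate 1 over replicate 2 CPM against mean CPM (log axis), with members in blue and the other detected hairpins in grey. Mir10b at 1.57 is the highest point among the abundant hairpins, Mir615 at -0.97 is below 0, and Mir122 is the lowest point.

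Ratios between members of a library do not depend on its total. They differed between the libraries for the miR-10 pair, and not beyond counting error for the miR-196 hairpins. The miR-196 hairpins have far fewer counts and wider intervals, so a modest shift could go unseen there. The Mir10a to Mir10b ratio was 1.78 in replicate 1 (1.77 to 1.80) and 3.01 in replicate 2 (2.98 to 3.04). The replicate 1 ratio was 0.593 of the replicate 2 ratio (0.586 to 0.601, exact conditional interval), so the proportion of the paralogues differed by more than counting error. For miR-196, the ratio of Mir196b to summed Mir196a-1 and Mir196a-2 counts was 1.13 in replicate 1 (1.03 to 1.23) and 1.20 in replicate 2 (1.09 to 1.33). Set against each other these gave 0.935, with an interval of 0.818 to 1.07 that includes no difference. Mir196a-2 had 12.1 times the counts of Mir196a-1 in replicate 1 (9.52 to 15.6) and 10.3 times in replicate 2 (8.01 to 13.6). Reads of the guide strand alone that fit both miR-196a genes are in neither count. These ratios therefore do not measure miR-196b against miR-196a, or the output of Mir196a-2 against that of Mir196a-1.

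Ratios of unique counts were also taken between members of the same cluster, and 1 of the 2 pairs differed between the libraries. Mir615 and Mir196a-2 both lie in the HoxC cluster and within introns of the same Hoxc5 transcript. Mir615 had 3.06 times the counts of Mir196a-2 in replicate 1 (2.84 to 3.31) and 9.83 times in replicate 2 (9.08 to 10.7). In the HoxB cluster, Mir10a had 2779 times the counts of Mir196a-1 in replicate 1 (2206 to 3551) and 2215 times in replicate 2 (1738 to 2870). That pair gave a ratio of ratios of 1.25 (0.883 to 1.78), which includes no difference. Counts of Mir196a-1 and Mir196a-2 leave out reads of miR-196a-5p alone, and those of Mir10a and Mir615 have no such gap. The ratios of both pairs therefore do not measure the output of 1 hairpin against that of its neighbour.

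**Figure D4:**
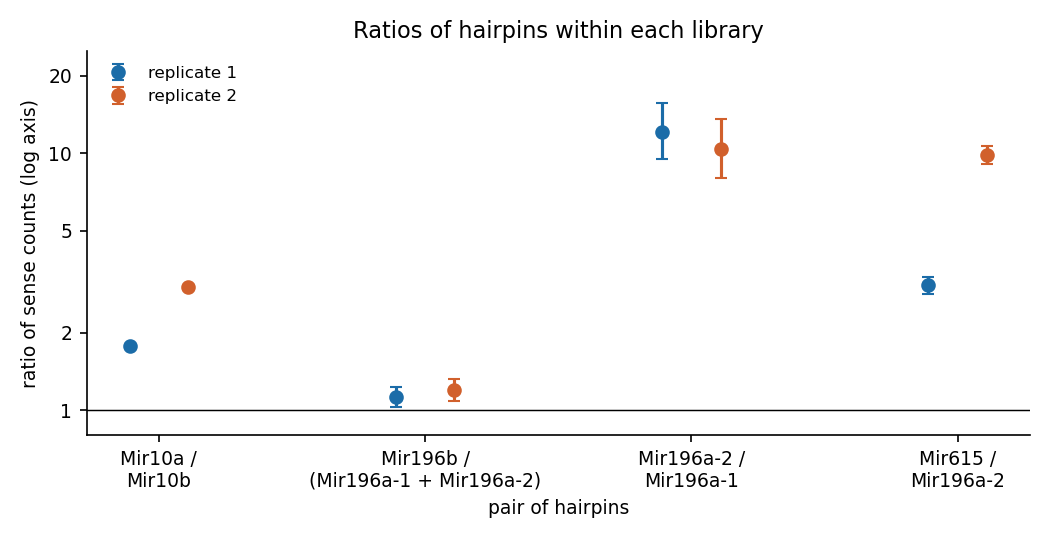
Ratios of sense counts between members within each library, on a log axis, with exact 95% intervals as bars. The Mir10a to Mir10b and Mir615 to Mir196a-2 points of the replicates lie apart, while the intervals of both miR-196 pairs overlap.

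The closest relatives of miR-10 outside the clusters, the miR-99 and miR-100 hairpins, carry a guide strand with a different seed. The strand of Mir99a is printed for comparison, with the seed in capitals.
miR-99a-5p (chr16:77598940-77598961, + strand, GRCm38.p6): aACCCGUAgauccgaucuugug
It shares a run of 10 bases with miR-10a-5p. Mir99a stood at 13341 CPM in replicate 1 against 12030.1 CPM in replicate 2, Mir99b 7245 and 4728 CPM, and Mir100 2506 and 2176 CPM. Their ratios of replicate 1 to replicate 2 were 1.11, 1.53 and 1.15, and all 3 were called higher in replicate 1. With totals taken without Mir122, Mir99b stayed so at 1.23, while Mir99a at 0.891 and Mir100 at 0.925 were called higher in replicate 2, so the direction of these 2 depends on the total. Mir10a had 4.18 times the counts of Mir99a in replicate 1 (4.14 to 4.22) and 2.64 times in replicate 2 (2.61 to 2.66). For Mir10b this was 2.34 in replicate 1 (2.32 to 2.37) and 0.877 in replicate 2 (0.866 to 0.887), so Mir10b stood above Mir99a in replicate 1 and below it in replicate 2.

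Hairpins with the most similar levels were found as the 3 detected genes nearest on the log2(CPM + 1) scale over the 2 libraries. For Mir10a they were Mirlet7i, Mir143 and Mir23a, at distances of 0.29, 0.29 and 0.44. For Mir10b they were Mir322, Mir21a and Mir30e, at 0.86, 0.90 and 1.01, so no hairpin came as near to it. Mir615 was nearest to Mir455 at 0.34, Mir196b to Mir1981 at 0.25, Mir196a-2 to Mirlet7f-1 at 0.18 and Mir196a-1 to Mir292 at 0.16.

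Marker hairpins of other cells and organs also differed between the libraries, and their part in the members' ratios was not tested. The kidney list had 3 of 4 hairpins detected, none at 0, and summed to 106 CPM in replicate 1 and 1399 CPM in replicate 2, led by Mir194-2. Of these hairpins 2 were called higher in replicate 2, and 1, Mir204, was called higher in replicate 1, at 48.5 against 35.7 CPM. The liver list is Mir122 alone, which was also higher in replicate 2. Which organ the reads of the kidney list came from was not tested. The striated muscle list summed to 993 CPM in replicate 1 and 0.661 CPM in replicate 2, nearly all Mir206, with 0 of 6 detected in both and Mir133a-2 and Mir133b at 0. The smooth muscle and stroma list, led by Mir143, had 5 of 6 detected with Mir199a-1 at 0, and summed to 49832 CPM in replicate 1 and 33054 CPM in replicate 2. In it 3 hairpins were called higher in replicate 1, and 1, Mir214, was called higher in replicate 2, with 248 against 1088 CPM. The leukocyte list, led by Mir146, had 5 of 5 detected, all called higher in replicate 1, and summed to 4688 and 2593 CPM. The fat list, led by Mir378a, had 5 of 5 detected and summed to 62869 and 59093 CPM, and the endothelial Mir126a had 62826 and 60799 CPM. The erythroid list, led by Mir451a, had 2 of 2 detected and summed to 1487 and 1248 CPM. The neuroendocrine list, which includes chromaffin cells of the medulla, had 8 of 8 detected and summed to 40675 and 34383 CPM, led by Mir375. The sums of the fat, endothelial, erythroid and neuroendocrine lists had ratios of replicate 1 to replicate 2 between 1.03 and 1.19. That is less than the shift that Mir122 makes in the totals, which took the median log2 ratio from -0.28 to 0.04. The fat and neuroendocrine sums mostly follow their leading hairpins and hide members that moved apart. Calls in the neuroendocrine list favoured replicate 1 for 5 hairpins and replicate 2 for 2. In the fat list 1 call went each way, while Mir126a and the 2 erythroid hairpins all had the higher level in replicate 1.

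The guide strands were also set against the reference 3′ ends of messenger RNAs, although no messenger RNA was measured. Each was compared without gaps with every window of its length in the longest annotated 3′ UTR of 20954 protein-coding genes. Of 30781583 windows of 22 bases, 1 paired with miR-196a-5p with at most 2 mismatches (3.25e-06%), and it lies in Hoxb8. The site is printed on the transcript strand as DNA, with bases complementary to miR-196a-5p in capitals.
Hoxb8 3′ UTR (chr11:96284888-96284909, + strand, GRCm38): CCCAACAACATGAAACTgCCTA
It is complementary at 21 of 22 bases, and the difference from the perfect complement is A18G, counted from the 5′ end of the site with the perfect complement's base first. There a G faces a U of the seed, which was counted as a mismatch. The site therefore does not hold the full complement of the seed. Against miR-196b-5p the same window is complementary at 20 bases. Hoxb8 lies in the HoxB cluster with Mir196a-1. With up to 3 mismatches no other window matched either strand, and none matched miR-10a-5p, miR-10b-5p or miR-615-3p.

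Shorter seed matches were counted in the first 500 bases of 3′ UTRs at least that long, on the transcript strand. The complement of the miR-196 seed, ACTACCT, was found in 8 of 34 Hox genes (23.5%) and in 285 of all 14337 genes (1.99%). It overlaps the complement of the let-7 seed, CTACCTC, by 6 letters. The complement of the miR-10 seed, ACAGGGT, was found in 1 of 34 Hox genes (2.94%) and in 682 of all genes (4.76%). That of miR-615-3p, GGCTCGG, was in 0 of 34 Hox genes and in 146 of all genes (1.02%). A match describes letters in the reference and is not a measured site, and no match says only that the letters are not in this window.

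**Figure D5:**
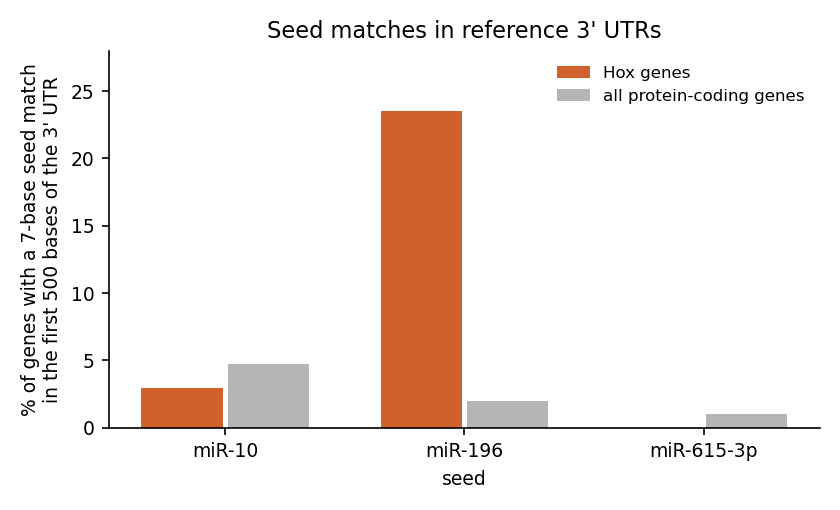
Percentage of genes whose first 500 bases of 3′ UTR hold the 7-base complement of each seed, for 34 Hox genes (left bar of each pair) and all 14337 protein-coding genes (right bar). The miR-196 bars are 23.5% and 1.99%, the miR-10 bars 2.94% and 4.76%, and the miR-615-3p bars 0 and 1.02%.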

How the data were processed

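The authors deposited raw counts of reads per microRNA gene from total RNA taken through a multiplexed short-RNA protocol, per the labels, made on mm10 with GENCODE M21, per the text files beside the tables. The aligner is not given in the sources used here. The tables have 4 summary lines, left out of totals and tests, and 3 count columns, which by their values are either strand, sense and antisense. Sense counts were used, and antisense counts at the members were 0 or 1 per library. Positions and transcripts came from GENCODE M21, and sequences from RefSeq (GRCm38.p6), where 6 of 6 members had mature and 5 of 6 hairpin entries.

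Genes that reached 10 counts in each library were tested with an exact two-sided binomial test at 0.05. The test was also run on simulated counts without spread between libraries beyond counting error. That run cannot show how the test treats such spread. Intervals are Clopper-Pearson, and those of ratios of ratios exact conditional. The members, marker lists and tests were chosen with earlier results of these data known. Named genes were all members, other hairpins in the clusters, hairpins with a member's seed, Mir99a, Mir99b, Mir100, the 3 nearest hairpins of each member (the nearest alone is printed for 4 of them), Hox genes with a matching window, the leader of each marker list and Mir122. No genome was used, and 3′ UTRs were read from GENCODE M21 transcripts. The seed search in 3′ UTRs, the Mir99a ratios and the ranking of abundant genes, which names Mir21a, were added later. Mir204 and Mir214 were named after their values were seen. Alternatives were other totals, DESeq2 1.42.0 and edgeR 4.0.16 TMM factors, other count minimums, added CPM, the either-strand column and each library left out. Python 3.11.15, numpy 2.4.6, scipy 1.17.1, matplotlib 3.10.9 and R 4.3.3 were used.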

Additional observations from a re-analysis of the deposited data

How the results depend on the processing

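Of 137 recomputed values, 127 were labelled the same. Ratios between the libraries had to keep their direction and side of the threshold, or direction alone where CPM was added. Levels, shares and ratios within a library had to move by less than the SD of the replicates. Counts had to stay within 1.5-fold. With 2 libraries, leaving out 1 always passes the SD rule, and the same CPM added to both cannot reverse a ratio. Those values could not have come out otherwise. The 2 that reversed were no members: with totals without Mir122, a check added after the data were seen, the ratio of replicate 1 to replicate 2 was 0.891 for Mir99a and 0.925 for Mir100. With all input reads as the total, levels were lower by construction: 18542 CPM for Mir10a, 8800.5 for Mir10b, 475 for Mir615, 105 for Mir196b, 83.0 for Mir196a-2 and 7.31 for Mir196a-1, and 2.80% for the members together. Asking also for a 1.5-fold difference, with the default totals, cut the calls to 129 of 352 genes, while 5 of 6 members were still called. With totals without Mir122, the ratios of Mir10a (1.41), Mir196a-2 (1.32) and Mir196b (1.22) were under 1.5-fold. Those of Mir10b (2.38) and Mir615 (0.411) were beyond it. Allowing 1 mismatch left 1 matching 3′ UTR window, against 2 matches of the same Hoxb8 window. With 1 replicate left out, the share of the members was 4.41% to 8.83%. No paired analysis was possible because there is 1 group, and leaving out a library leaves no ratio between libraries. The unique counts of Mir196a-1 and Mir196a-2 limit what can be said of miR-196a, and arms of a hairpin were not separated.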

Other observations

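The seed of miR-196, AGGUAGU, also occurs inside let-7 strands, displaced by 1 base. Its letters were in 16 of 1738 mature entries (0.921%), of which 10 were let-7 or miR-98 strands that hold them from base 3. The strand of Mirlet7g (chr9:106178846-106178867, + strand, GRCm38.p6) shows this, with its own seed in capitals.
let-7g-5p: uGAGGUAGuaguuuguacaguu
Mirlet7g stood at 96431 CPM in replicate 1 and 79482 CPM in replicate 2, where Mir196b had 296 and 196 CPM. The hairpin of Mir615 was the richest in G and C among the members, at 69.6%, against 39.7% to 48.0% for the others and a median of 50.2% for the 352 detected hairpins, of which 12 were richer.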
